A study of Mus musculus with 2 samples.

Results

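Cytochrome P450 enzymes are haem proteins that insert oxygen into small molecules, and the mouse carries a large family of genes for them, the Cyp genes. The genes described here are all listed genes whose symbol is Cyp followed by a family number, a subfamily letter and a member number, which gave 94 of the 32285 genes in the deposited matrices. The rule leaves out Cyp51, whose symbol has no subfamily letter, and symbols that end in a further letter, such as Cyp4a12a and Cyp4a12b. All 94 had at least 1 unique molecule (UMI) in the epithelial cells analysed, and 48 had 50 or more over both libraries, the minimum used here for describing a gene by cell type.

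P450 enzymes of families 1, 2 and 3 oxidise drugs, pollutants and plant compounds and are best known from liver, gut, lung and nose. Family 4 hydroxylates fatty acids and eicosanoids, and small families with a fixed substrate make or clear steroid hormones, bile acids, oxysterols, vitamin D and retinoic acid. In the thymus, medullary epithelial cells (mTECs) transcribe genes of peripheral tissues, in part under the regulator Aire, and some of them, called mimetic cells, resemble tuft cells, keratinocytes, enterocytes or other cells of the periphery. The human counterparts of several Cyp genes, among them those of Cyp11a1, Cyp17a1, Cyp21a1, Cyp1a2 and Cyp2a5, are known targets of autoantibodies in inherited AIRE deficiency.

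The data were droplet single-cell RNA counts of mouse thymus cells sorted as live and EPCAM+, an epithelial surface protein, after enzymatic digestion and a Percoll gradient. There was 1 library labelled Foxp1 KO, described as Cre+, and 1 labelled Foxp1 WT, described as Cre-, where Foxp1 is a forkhead transcription factor; the genotype field reads KO for both. The sources used here do not give age, sex, strain, number of animals, the Cre driver or the floxed part of Foxp1. With 1 library a group there was no replicate and no test: intervals are exact 95% intervals of counting error only, and they cover neither animals, sorts and captures nor the gathering of molecules in single cells.

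Of 4277 and 4957 deposited barcodes (KO and WT, in this order throughout), 3584 and 4037 passed the cell filter, and 3267 and 3886 of these were epithelial, with 22416342 and 30804148 UMIs and a median of 5219 and 6360.5 UMIs a cell. The barcodes shared by the libraries numbered 5. Foxp1 itself went against its label, at 405 CPM (a gene's UMIs scaled to a common total for its group) under the label KO and 252 CPM under the label WT. Whether the counts cover the deleted part and whether the labels were exchanged was not tested. An exchange would turn the sign of every KO over WT ratio, and the groups are called by their labels throughout. Clusters were named from marker lists: Aire-stage mTEC-like cells (722 and 1111), Ccl21 mTEC-like clusters 1 (420 and 485) and 3 (447 and 288), cycling cells (247 and 277), and tuft- (258 and 499), keratinocyte- (183 and 312), neuroendocrine- (173 and 154), microfold- (78 and 110), enterocyte- and hepatocyte- (52 and 87), cortical epithelial (cTEC)- (54 and 26) and ciliated-like cells (42 and 28). Airway secretory-like (24 and 9) and muscle-like cells (11 and 5) were too few to rank. The enterocyte- and hepatocyte-like type, named here for both tissues because its list mixes their markers, showed 12 of 14 listed markers and the microfold-like type 9 of 9, but the latter also showed 11 of the 14 enterocyte and hepatocyte markers. Clusters 2 (486 and 318) and 11 (70 and 177) stayed unnamed, at a median depth 0.347 and 0.311 times that of their libraries. Cluster 3 carried Tagln and Acta2, markers of pericytes, among its leading genes, so the 2 Ccl21 mTEC-like clusters were not pooled. Median depth (UMIs a cell) was 3636 and 3805.5 in microfold-like, 6918.5 and 5613 in enterocyte- and hepatocyte-like, 5442 and 6557.5 in keratinocyte-like and 8530 and 9719.5 in neuroendocrine-like cells. A cluster with 9 of 9 endothelial markers (254 and 95 cells, median 3892.5 and 6067 UMIs) was left out of the epithelial cells. Its levels are given for comparison, since doublets could not be removed. Whether its Cyp UMIs came from free RNA, mixed droplets or its own transcripts was not tested.

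Cyp transcripts were a small share of the epithelial RNA, and they were densest in 3 mimetic types. Summed over the 94 genes the level was 516 CPM in the library labelled KO and 526 in the library labelled WT. It was 1683 and 1958 CPM in the microfold-like, 1518 and 1439 in the enterocyte- and hepatocyte-like and 1511 and 1440 in the keratinocyte-like type. Neuroendocrine-like cells had 658 and 586 CPM, Aire-stage cells 526 and 483, tuft-like cells 468 and 405, Ccl21 mTEC-like cluster 1 had 302 and 283 CPM, cluster 3 had 185 and 179, and cycling cells had 215 and 196. The endothelial-like cells had 486 and 452 CPM, so the 3 mimetic types, the neuroendocrine-like and the Aire-stage cells lay above them in both libraries, the Aire-stage cells with intervals that overlap those of the endothelial-like cells in both (509 to 543 against 453 to 520, and 471 to 495 against 409 to 498). After thinning each cell to 2000 UMIs, at least 1 Cyp UMI was seen in 84.4% and 82.1% of microfold-like cells, in 53.8% and 47.7% of Aire-stage cells and in 30.04% and 28.7% of cycling cells, against 50.8% and 51.8% of endothelial-like cells. The thinning left out 14 and 26 microfold-like, 17 and 39 Aire-stage, 4 and 2 cycling and 55 and 12 endothelial-like cells as shallower. Without thinning the shares were 91.0% and 85.5%, 86.0% and 86.2%, 76.5% and 75.5%, and 68.9% and 78.9%, in the same order of types. Single genes made up much of the high sums. Cyp2a5 gave 484 of the 652 and 869 of the 1178 Cyp UMIs of microfold-like cells. In the enterocyte- and hepatocyte-like type Cyp3a13 gave 290 of 606 and 223 of 896, and Cyp2a5 gave 49 and 341.

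The Aire-stage cells showed the widest choice of Cyp genes rather than the highest level. At least 1 UMI of 86 and 91 of the 94 genes was found there, against 44 and 50 in tuft-like, 41 and 43 in enterocyte- and hepatocyte-like and 29 and 35 in Ccl21 mTEC-like cluster 1 cells. The Aire-stage cells also held the most UMIs of any type, 7130226 and 12561268, and breadth grows with the number of UMIs read. The cycling cells, with 3102707 and 3602521 UMIs, showed 45 genes in each library, and cluster 3, with 2870414 and 2055761 UMIs, showed 35 and 31. Keratinocyte-like cells, with 1307949 and 2349498 UMIs, showed 42 and 53 genes. Endothelial-like cells, with only 1692966 and 898848 UMIs, showed 53 and 44, so breadth did not follow the number of UMIs alone.

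Each of the 48 genes with 50 or more UMIs was assigned the type of its highest level, taken as the mean CPM of both libraries over the 13 types with 50 or more cells. The enterocyte- and hepatocyte-like type was the highest for 13 of them (27.1%), against 6.36% of the 19006 genes with as many UMIs. The keratinocyte-like type was highest for 7 (14.6% against 5.75%) and the microfold-like type for 6 (12.5% against 5.42%). The Aire-stage type was highest for 4 (8.33%), near the share of all genes (10.3%), as were the tuft-like type with 4 (8.08% of all genes) and the neuroendocrine-like type with 3 (7.87%). The cTEC-like and ciliated-like types had 4 each, against 11.7% and 13.3% of all genes, Ccl21 mTEC-like cluster 1, cluster 3 and the unnamed cluster 2 had 1 each (8.5%, 2.04% and 5.52% of all genes), and cycling cells and cluster 11 had 0 (6.07% and 9.08%). Taken in each library alone, the enterocyte- and hepatocyte-like type was highest in both for only 8 genes. The highest type was the same for 29 of the 48 genes and for 16 of the 24 genes with 200 or more UMIs. The ranking set no UMI minimum within a type, so some of the 13 rest on few UMIs. Cyp24a1 had 0 and 4 UMIs in the enterocyte- and hepatocyte-like type, from 1 cell, against 14 and 33 in Aire-stage cells. Cyp17a1 had 13 and 9 there, from 4 cells in each library, against 54 and 73. The count of 13 rests on the partition of the cells: it was 5 of 48 at clustering resolution 0.5 and 4 of 44 under a stricter cell filter, against 5.64% and 4.30% of all genes. This name was then held by clusters of 781 and 261 cells at resolution 0.5 and by 1 of 639 cells under the stricter filter, in place of 139 cells.

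**Figure D1:**
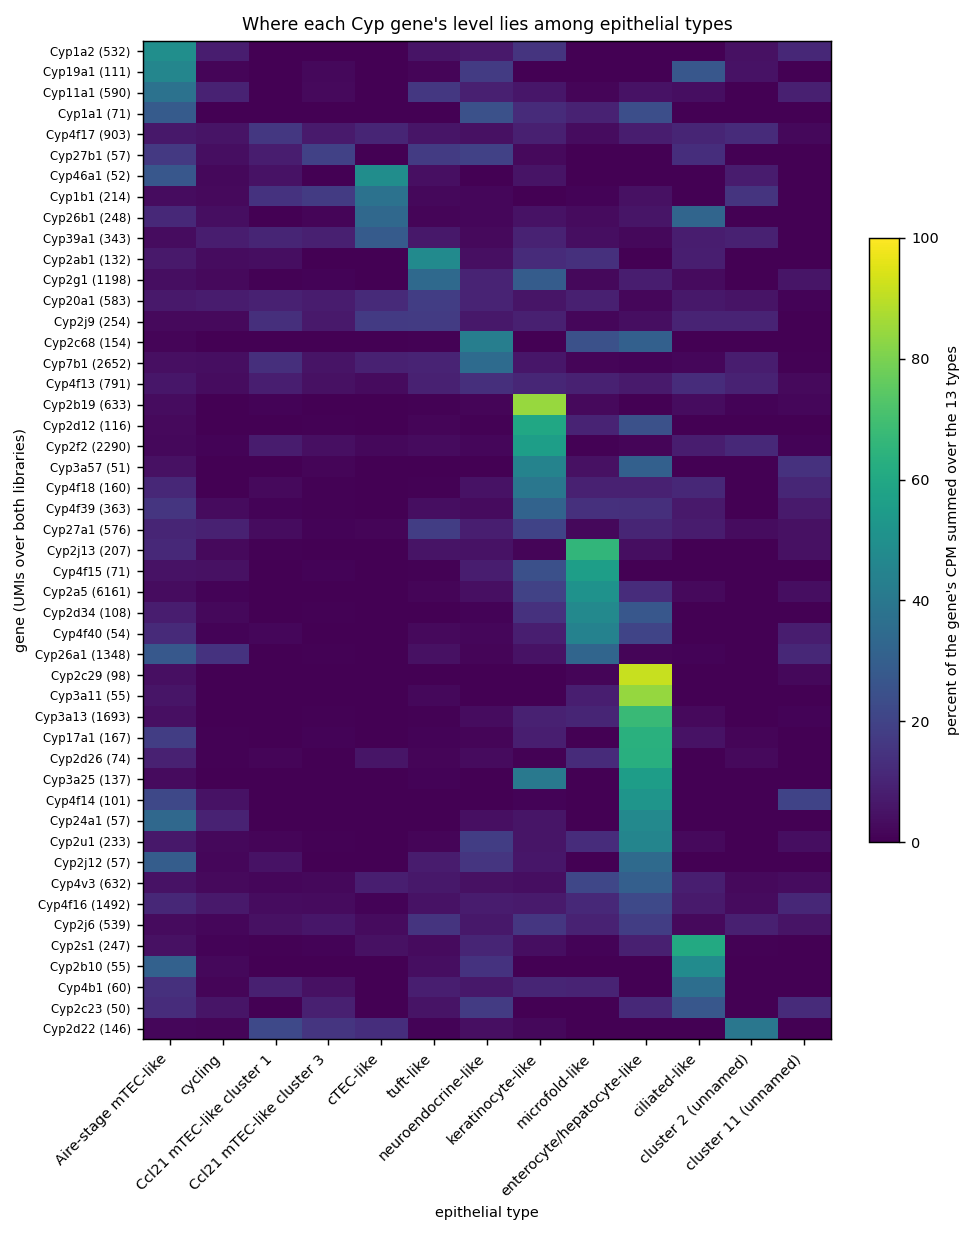
Share of each gene's CPM, summed over 13 epithelial types (columns), that lies in each type, for the 48 Cyp genes with 50 or more UMIs (rows, with UMIs over both libraries in brackets); CPM is the mean of both libraries. Bright cells mark genes whose summed CPM lies mostly in 1 type. Examples are Cyp2b19 at 84.6% in keratinocyte-like cells, and Cyp3a11 at 84.0% and Cyp2c29 at 91.8% in the enterocyte/hepatocyte-like type. Cyp4f13 reached no more than 13.4% in any type. These are shares of levels, not of UMIs: a type of few cells can hold a high share with few UMIs. Cyp3a11 and Cyp2c29 also had UMIs in Aire-stage cells.

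**Figure D2:**
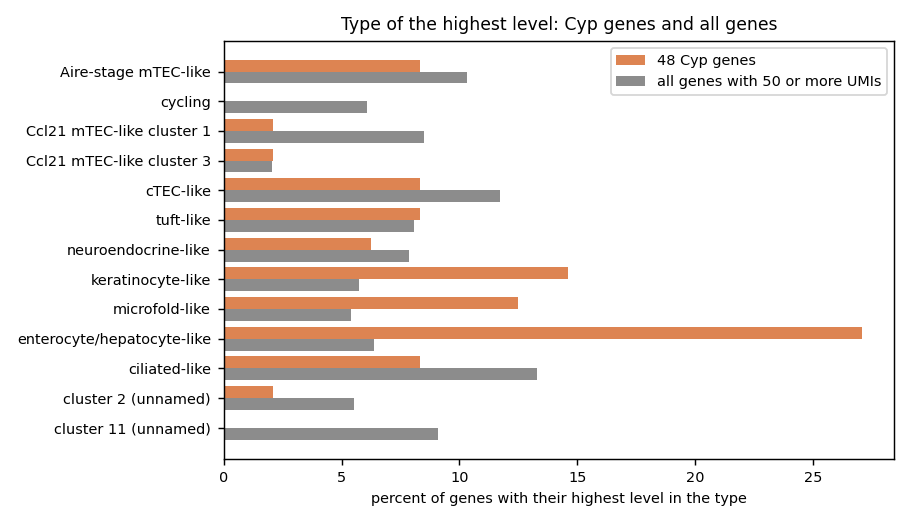
Percent of genes whose highest level lies in each epithelial type, for 48 Cyp genes (orange) and all 19006 genes with 50 or more UMIs (grey). The enterocyte/hepatocyte-like type holds 27.1% of the Cyp genes and 6.36% of all genes.

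Family 3, the main drug-oxidising family of liver and gut, had 7 members, of which 4 passed the minimum. Cyp3a13, an enzyme of intestine and liver on chromosome 5 (137892932 to 137921619, mm10, minus strand), had 290 and 223 UMIs in the enterocyte- and hepatocyte-like cells, or 726 CPM (interval 645 to 815) and 358 CPM (313 to 408). It was seen in 65.4% and 44.8% of those cells and in 3.94% and 3.16% of endothelial-like cells. Its next types were microfold-like (67.1 and 101 CPM) and keratinocyte-like (61.2 and 83.4 CPM), and its mean level was 6.44-fold above the next. That mean, 542 CPM, was 142 CPM at clustering resolution 0.5 and 137 CPM under the stricter cell filter. Aire-stage cells had 36.9 and 28.8 CPM, most of it in cluster 4, an Aire-stage cluster led by Klk1b26, Nos2 and Ccl22 (72.7 and 73.0 CPM, against 23.6 and 12.5 in cluster 0). Cyp3a11, a major hepatic drug oxidase, had only 55 UMIs, with 35.1 and 8.03 CPM in the enterocyte- and hepatocyte-like type and 0.841 and 1.99 in Aire-stage cells. Cyp3a25 had 37.6 and 17.7 CPM in the same type and 15.3 and 24.7 in keratinocyte-like cells, and Cyp3a57 was highest in keratinocyte-like cells (12.2 and 4.26 CPM). Over all epithelial cells the 26 and 25 Cyp3a57 UMIs came from 6 and 19 cells, and 1 cell labelled KO held 14.

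The bases before the start sites of these genes were compared because the enterocyte- and hepatocyte-like type held more Cyp genes than any other type. The windows come from RefSeq (build GRCm38.p6), which gave 83 start sites for 73 of the 94 genes, and run from 250 bases before to 50 after the start; the 250 bases before it are printed, 5′ to 3′ on the gene's strand. Capitals mark matches to the HNF4 site CAAAGTNCA or the AP-1 site TGANTCA, searched on both strands, where HNF4 factors are regulators of liver and gut genes and AP-1 is a general stress and growth factor. Cyp3a11 (chr5:145879855-145880104, minus strand) and Cyp2d26 (chr15:82794246-82794495, minus strand) are shown as HNF4 matches highest in the enterocyte- and hepatocyte-like type, Cyp26a1 (chr19:37697558-37697807, plus strand) as a match highest elsewhere, and Cyp3a13 (chr5:137921620-137921869, minus strand) as the best measured gene of that type, without an HNF4 match and with 2 AP-1 matches, the second of which begins 6 bases before the start and is printed without its last base.
Cyp3a11: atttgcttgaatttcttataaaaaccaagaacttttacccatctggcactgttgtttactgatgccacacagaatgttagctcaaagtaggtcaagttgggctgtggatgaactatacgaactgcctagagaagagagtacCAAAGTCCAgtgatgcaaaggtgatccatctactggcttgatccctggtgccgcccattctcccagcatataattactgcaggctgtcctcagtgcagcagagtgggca
Cyp2d26: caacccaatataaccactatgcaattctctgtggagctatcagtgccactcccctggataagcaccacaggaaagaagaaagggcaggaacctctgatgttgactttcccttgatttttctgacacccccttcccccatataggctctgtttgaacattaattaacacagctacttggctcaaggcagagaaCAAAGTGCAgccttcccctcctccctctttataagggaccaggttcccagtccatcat
Cyp26a1: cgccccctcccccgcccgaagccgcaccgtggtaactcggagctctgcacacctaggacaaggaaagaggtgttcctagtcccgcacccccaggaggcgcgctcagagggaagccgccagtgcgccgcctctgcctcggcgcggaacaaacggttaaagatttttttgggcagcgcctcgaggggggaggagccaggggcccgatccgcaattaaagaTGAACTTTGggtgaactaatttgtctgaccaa
Cyp3a13: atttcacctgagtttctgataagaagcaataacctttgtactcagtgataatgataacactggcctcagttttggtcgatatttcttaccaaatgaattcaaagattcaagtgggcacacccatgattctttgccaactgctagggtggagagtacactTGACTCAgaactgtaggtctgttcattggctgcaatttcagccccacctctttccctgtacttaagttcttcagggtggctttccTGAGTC

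The HNF4 letters were in 14 of the 83 Cyp windows (16.9%) and in 1.41% of all 32851 windows of this length. Of the 14 genes, 8 belong to the Cyp2c subfamily and 3 to the Cyp3a subfamily, whose members are copies of each other and share promoter sequence, so they are not independent. Only 4 of the 14 genes passed the UMI minimum: Cyp3a11 and Cyp2d26, highest in the enterocyte- and hepatocyte-like type, Cyp26a1, highest in the microfold-like type, and Cyp2c68, highest in the neuroendocrine-like type. The HNF1 site, searched by its consensus letters, was in 2.41% of Cyp windows (those of Cyp4a32 and Cyp4f40) and 0.399% of all. The ETS site of the SPI type GAGGAAGT was in 7.23% of Cyp windows and 3.20% of all, the AP-1 site in 7.23% and 7.81%, the grainyhead-like site AACCNGTT in 0 of 83 and 2.09% of all, and the xenobiotic response element TNGCGTG in 1.20% and 5.07%. No match overlapped another in the Cyp windows, both strands were searched, and a match describes letters, not binding. The factor gene Hnf4g stood at 109 and 115 CPM over all epithelial cells, against 3.39 and 3.60 for Hnf4a. Both genes are on the marker list that named the enterocyte- and hepatocyte-like type, so a high level there follows in part from the naming. By mean CPM of both libraries, Hnf4g had 584 in that type and 468 in microfold-like cells. Hnf4a was highest in neuroendocrine-like cells (25.9, against 12.4 in the enterocyte- and hepatocyte-like type).

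Family 2 was the largest with 48 members, 19 of them past the minimum, and its well-measured members were spread over unlike types. Cyp2a5, which oxidises coumarin and nicotine in liver and olfactory mucosa, had the most UMIs of all 94 genes, 2363 and 3798. It lies on chromosome 7 (26835305 to 26843548, plus strand) and shares 15.7% of its 90-base windows with Cyp2a4, so a part of its UMIs could come from that copy. In microfold-like cells it had 484 and 869 UMIs, or 1249 CPM (1141 to 1366) and 1444 CPM (1350 to 1544), and a UMI in 71.8% and 70.9% of cells. Keratinocyte-like cells had 550 and 487 CPM, enterocyte- and hepatocyte-like cells 123 and 548, neuroendocrine-like cells 125 and 92.5, and Ccl21 mTEC-like cluster 1 only 2.12 and 3.70 CPM. Endothelial-like cells had 102 and 86.8 CPM, with a UMI in 12.99% and 13.7%. The 90.5 and 79.5 CPM of Aire-stage cells, with a UMI in 17.7% and 18.3%, were no higher in level than these. Ccl21 mTEC-like cluster 1 lay far below both, so the endothelial-like level was not shared by all clusters. The source of the endothelial-like level was not tested. Within the Aire-stage type, cluster 4 had 183 and 141 CPM and cluster 0 had 56.3 and 57.0.

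Cyp2f2, which activates naphthalene in the club cells of the airway, was highest among the 13 types in keratinocyte-like cells, at 273 CPM (245 to 303) and 355 CPM (331 to 380), with a UMI in 29.0% and 27.9% of cells against 3.15% and 3.16% of endothelial-like cells. A smaller cluster of 24 and 9 cells with airway secretory markers, too few for the ranking, had 1148 and 667 CPM, with a UMI in 23 of 24 and 9 of 9 cells. At clustering resolution 2 the keratinocyte-like mean fell from 314 to 125 CPM. Cyp2f2 overlaps Gm15883 on the opposite strand. Cyp2b19, an arachidonic acid epoxygenase known from the upper layers of the epidermis, had 161 CPM (140 to 184) and 117 CPM (104 to 132) in keratinocyte-like cells, 24.1-fold above the next type on average, and a UMI in 24.6% and 17.9% of cells against 0.787% and 3.16% of endothelial-like cells. Cyp2d12 was likewise highest there, at 24.5 and 20.4 CPM.

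Cyp2g1, an enzyme of the olfactory mucosa, was highest in tuft-like cells at 102 and 88.1 CPM, with 94.04 and 68.1 in keratinocyte-like cells, so that these neighbours in the order were 1.17-fold apart. Tuft-like cluster 7, the cluster led by the taste genes Gnat3 and Gnb3, had 130 and 96.1 CPM and tuft-like cluster 9 had 28.1 and 66.5. Cyp2ab1 was also highest in tuft-like cells (17.2 and 8.86 CPM). Cyp2s1 was highest in ciliated-like cells at 88.5 CPM (62.9 to 121) and 46.8 CPM (24.9 to 80.1). Cyp2c68 was highest in neuroendocrine-like cells (33.8 and 21.8 CPM) but shares 22.4% of its windows with Cyp2c40. Cyp2j13 was highest in microfold-like cells (49.0 and 26.6 CPM). Cyp2c29 rested on few cells: its 43 UMIs in the enterocyte- and hepatocyte-like cells of the library labelled KO came from 5 cells, and the library labelled WT had 0 among 87 cells, which allows a share of cells with a UMI of up to 3.45% and sets no limit on the share that express the gene. Its highest cell held 49.1% of all its UMIs in the library labelled KO.

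The 3 members of family 1, which are classic targets of the aryl hydrocarbon receptor, did not share 1 pattern: Cyp1a1 and Cyp1a2 were highest in Aire-stage cells and Cyp1b1 in cTEC-like cells. Cyp1a2, an enzyme of the liver, had most of its UMIs in Aire-stage cluster 0, with 171 and 282 UMIs (32.9 and 30.7 CPM) against 0 and 4 UMIs in Aire-stage cluster 4. These came from 11 and 31 cells. Keratinocyte-like cells had 13.8 and 0.426 CPM. Over all epithelial cells its 205 and 327 UMIs came from 20 and 43 cells, and cells with 5 or more UMIs held 92.7% and 84.7% of them. Endothelial-like cells had 2.95 and 16.7 CPM. Cyp1a1 had 10 and 61 UMIs, 9 and 46 of them in Aire-stage cluster 0, and was highest in Aire-stage cells (1.26 and 3.66 CPM), 1.16-fold above neuroendocrine-like cells. Of the 15 Aire-stage cells with a Cyp1a1 UMI, 8 also had a Cyp1a2 UMI (53.3%), against 2.35% of all 1833 Aire-stage cells. This share was not matched on depth, and the 1833 cells include cluster 4, which had almost no Cyp1a2 UMIs. Cluster 4 was also shallower, at a median of 6703 and 7536 UMIs against 10272 and 11565.5 in cluster 0. Cyp1b1 had another pattern, with 22.1 and 34.2 CPM in cTEC-like cells (7 and 5 UMIs), 14.98 and 10.7 in Ccl21 mTEC-like cluster 3, 12.7 and 8.99 in cluster 1 and 1.96 and 3.03 in Aire-stage cells. The partner genes Ahr and Arnt were present at 7.67 and 9.97 and at 47.9 and 51.7 CPM over all epithelial cells. As a mean of both libraries, Ahr had only 4.05 CPM in Aire-stage cells, against 40.1 in keratinocyte-like cells, its highest type. Arnt had 40.8 and 53.7 CPM in these types.

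Family 4 had 17 members, 10 of them past the minimum, and held the most evenly spread Cyp genes: the highest type of Cyp4f13 had 13.4% and that of Cyp4f17 16.4% of the CPM summed over types, the lowest such shares of the 48 genes. Cyp4f16 had 677 and 815 UMIs in 469 and 589 cells, and no cell held more than 10. Its highest level was in enterocyte- and hepatocyte-like cells (95.2 and 65.8 CPM), with 46.0 and 34.5 in Aire-stage, 41.3 and 43.2 in microfold-like and 9.75 and 11.7 in Ccl21 mTEC-like cluster 3 cells, and endothelial-like cells had 36.6 and 31.2. Cyp4f13 had 6.31 and 6.84 CPM in cTEC-like, 6.77 and 7.77 in cycling and 38.3 and 18.1 in neuroendocrine-like cells, and its next type, ciliated-like, had 25.0 and 28.8. Cyp4f17 was highest in Ccl21 mTEC-like cluster 1 (47.4 and 33.3 CPM), followed by the unnamed cluster 2 (38.6 and 21.4 CPM). Cyp4v3 had 72.6 and 72.3 CPM in enterocyte- and hepatocyte-like cells and 43.9 and 58.2 in microfold-like cells. Cyp4b1, a lung and kidney enzyme, had 60 UMIs in epithelial cells, whereas endothelial-like cells had 42.5 and 37.8 CPM, with a UMI in 22.0% and 24.2% of cells. The 5 Cyp4a genes that meet the symbol rule had 3 to 6 UMIs each in all, whereas Cyp4a12a had 33 and 48 UMIs and Cyp4a12b had 27 and 40, both left out by the rule.

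The sterol-clearing genes were led by Cyp7b1, an oxysterol hydroxylase of the alternative bile acid pathway that also makes a chemoattractant oxysterol. Cyp7b1 lies on chromosome 3 (18071950 to 18243338, minus strand) and had 1091 and 1561 UMIs, in 1300 cells over both libraries, the most cells of any Cyp gene. Neuroendocrine-like cells had 212 CPM (191 to 235) and 245 CPM (223 to 268), with a UMI in 63.6% and 74.7% of cells against 8.27% and 16.8% of endothelial-like cells. Ccl21 mTEC-like cluster 1 followed with 76.4 and 98.9 CPM, cTEC-like cells had 72.5 and 47.9, tuft-like cells 54.99 and 73.4, and Aire-stage cells 28.2 and 27.3. Microfold-like and enterocyte- and hepatocyte-like cells, the types with the highest Cyp sums, had only 5.16 and 14.96 CPM and 5.01 and 9.63 CPM. Cyp39a1, another oxysterol hydroxylase, was highest in cTEC-like cells (18.9 and 41.0 CPM, from 6 UMIs in each library), and Cyp27a1, a mitochondrial sterol hydroxylase, in keratinocyte-like (27.5 and 18.7 CPM) and tuft-like cells (21.1 and 20.8). The committed bile acid genes were sparse: Cyp7a1, the rate-limiting enzyme of the main pathway, had 0 and 3 UMIs and Cyp8b1 had 14 and 23.

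Of the 6 steroid hormone genes 3 passed the minimum. Cyp11a1, the side-chain cleavage enzyme that opens steroid synthesis, lies on chromosome 9 (58006411 to 58027023, plus strand) and overlaps Gm17322 on the same strand, so its UMIs could include that gene's. It had 145 and 303 UMIs in Aire-stage cells, or 20.3 CPM (17.2 to 23.9) and 24.1 CPM (21.5 to 27.0), with 25.0 and 28.9 CPM in cluster 0 and 7.79 and 11.2 in cluster 4. Tuft-like cells had 9.998 and 8.86 CPM, and endothelial-like cells 15.4 and 2.23. The Aire-stage value fell to 4.60 CPM at clustering resolution 2, where only a cluster of 571 cells took the Aire-stage name. Cyp19a1, the aromatase that makes oestrogens, had 5.05 and 4.94 CPM in Aire-stage cells, 36 and 57 of its 40 and 71 UMIs lying in cluster 0. Cyp17a1, needed for androgens and cortisol-like steroids, had 32.6 and 14.5 CPM in enterocyte- and hepatocyte-like cells, from 4 cells in each library, and 7.57 and 5.81 in Aire-stage cells. Cyp11b1 had 25 and 16 UMIs, all in Aire-stage cells, Cyp11b2 had 4 and 0, and Cyp21a1 had 11 and 8.

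Among the 3 genes that clear retinoic acid, Cyp26a1 (501 and 847 UMIs) was the main one. Aire-stage cells had 54.3 CPM (49.0 to 60.0) and 48.1 CPM (44.3 to 52.1), microfold-like cells 49.0 CPM (29.5 to 76.6) and 73.1 CPM (53.1 to 98.2), so these intervals overlapped in the library labelled KO but not in the other, where 10 microfold-like cells had a UMI. Cycling cells had 19.0 and 35.0. Endothelial-like cells had 19.5 and 36.7 CPM, whereas Cyp26a1 had at most 3 UMIs in either library in either Ccl21 mTEC-like cluster. Cyp26b1 had 113 and 135 UMIs, 5 cells holding 51.3% and 53.3% of them, and Cyp26c1 had 5 and 12. Of the vitamin D genes, Cyp24a1, which breaks the hormone down, and Cyp27b1, which activates it, had 57 UMIs each over both libraries, in 19 and 25 cells, and Cyp2r1 had 22 UMIs. Cyp20a1, an enzyme with no settled substrate, had a UMI in each of the 13 types in at least 1 library and was highest in tuft-like cells (33.9 and 15.8 CPM).

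**Figure D3:**
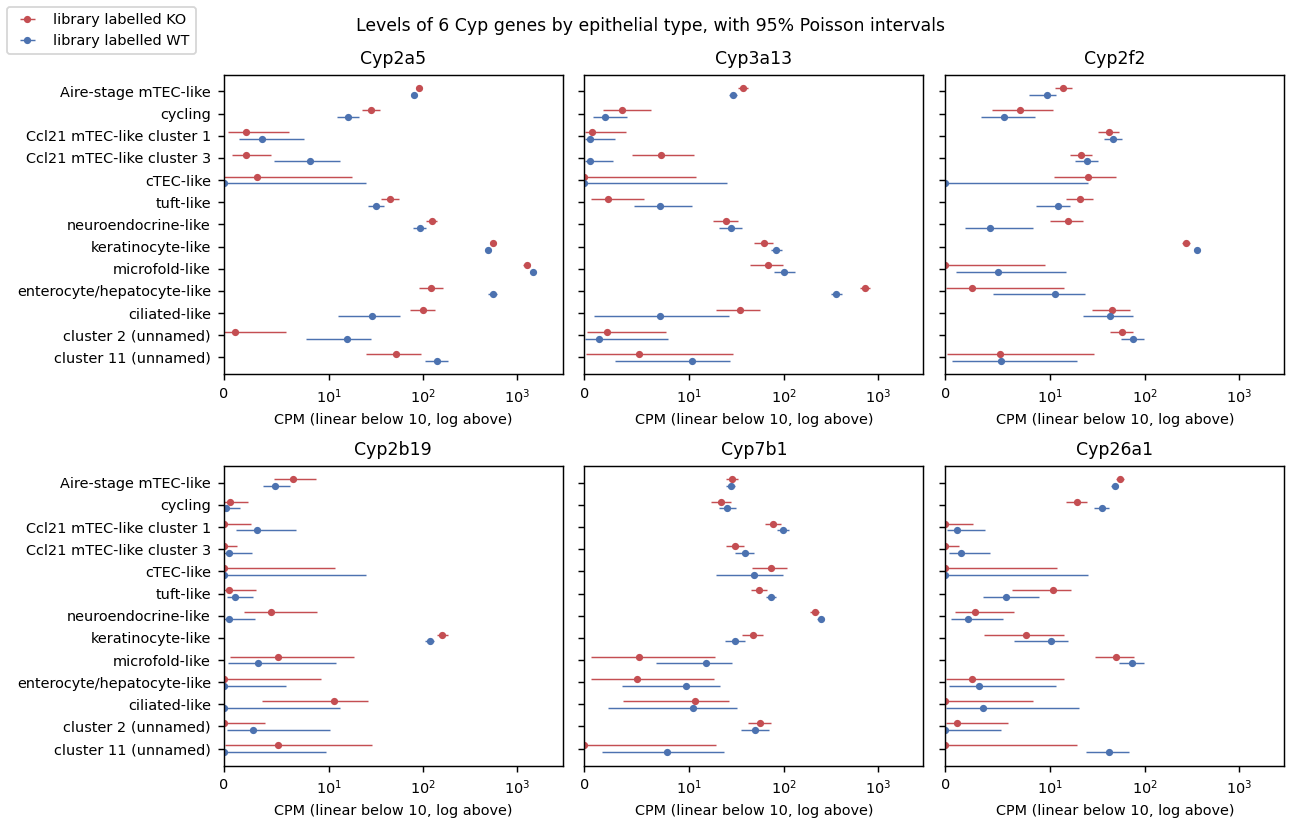
CPM of 6 Cyp genes in each of 13 epithelial types (axis linear below 10 and logarithmic above), points with 95% Poisson intervals, library labelled KO in red and WT in blue. Cyp2a5 stands at 1249 and 1444 CPM in microfold-like cells, Cyp3a13 at 726 and 358 in enterocyte/hepatocyte-like cells, Cyp2f2 and Cyp2b19 in keratinocyte-like and Cyp7b1 in neuroendocrine-like cells, whereas Cyp26a1 is shared by Aire-stage and microfold-like cells.

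The genes differed in how their molecules were gathered in cells. Over both libraries Cyp1a2 had 8.44 UMIs for each cell with a UMI and Cyp2a5 had 6.44, against 2.04 for Cyp7b1 and 1.13 for Cyp2d22. Cells with 5 or more UMIs held 81.2% and 82.9% of the Cyp2a5 UMIs and 9.75% and 6.38% of the Cyp4f16 UMIs. In the Aire-stage cells, 63 of the 98 cells with a Cyp2g1 UMI also had Cyp2a5 (64.3%), against 18.1% of all Aire-stage cells; the genes are neighbours on chromosome 7. Cells with a UMI of any gene tend to be deep cells, and this share was not matched on depth.

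**Figure D4:**
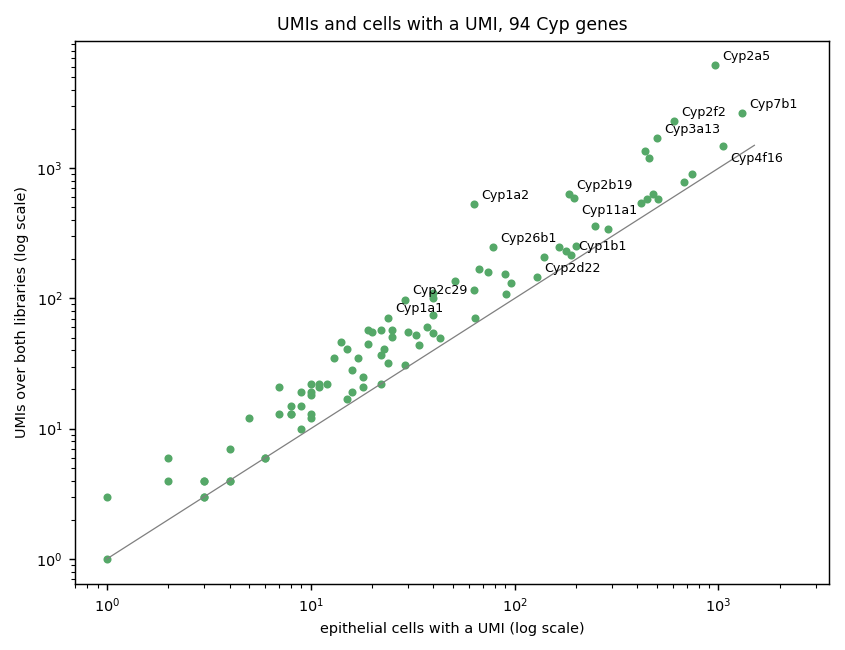
UMIs of each of the 94 Cyp genes over both libraries against the number of epithelial cells with a UMI, both on log axes; the line marks 1 UMI a cell. Cyp1a2 lies farthest above the line among named genes (532 UMIs in 63 cells), while Cyp2d22 (146 UMIs in 129 cells) lies close to it.

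Of the 94 genes, 71 lie in 10 arrays with gaps of at most 500 kb, and neighbours did not have to share a type. The array on chromosome 7 (25802475 to 27158668) holds 13 Cyp genes, and its 6 members past the minimum had 4 highest types: ciliated-like for Cyp2s1 and Cyp2b10, keratinocyte-like for Cyp2b19 and Cyp2f2, tuft-like for Cyp2g1 and microfold-like for Cyp2a5. The Cyp4f array on chromosome 17 (32452723 to 32947402) had 7 such members over 5 types and the Cyp2d array on chromosome 15 (82370527 to 82794294) had 4 over 4 types. The array on chromosome 9 (57676937 to 58027023) holds Cyp1a2, Cyp1a1 and Cyp11a1, all highest in Aire-stage cells. The Cyp2c array on chromosome 19 (39007019 to 40187333) has 14 members, of which 2 passed the minimum.

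The libraries labelled KO and WT were compared by their labels, although the Foxp1 level went against them. Over all epithelial cells most Cyp genes stood at like levels. A difference of 2-fold or more was found for 1 of 48 genes upward, against a background of 1.66% of the 19006 genes, and for 2 of 48 downward, against 2.53%; at these sizes 1 or 2 genes are near the background. With a minimum of 20 UMIs the count downward was 8 of 67, against 4.16% of 21840 genes, and with a minimum of 100 UMIs it was 0 of 34. A gene can pass the minimum of 20 through 1 library alone, and the share of all genes was not matched on counts. The log2 ratio was above 0 for 24 genes and below 0 for 24, with a median of 0.00 against -0.01 for all genes. By function, the median was -0.01 over 19 genes of family 2, 0.01 over 4 of family 3, 0.14 over 10 of family 4, -0.37 over 3 steroid hormone genes and 0.02 over 4 bile acid and oxysterol genes.

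**Figure D5:**
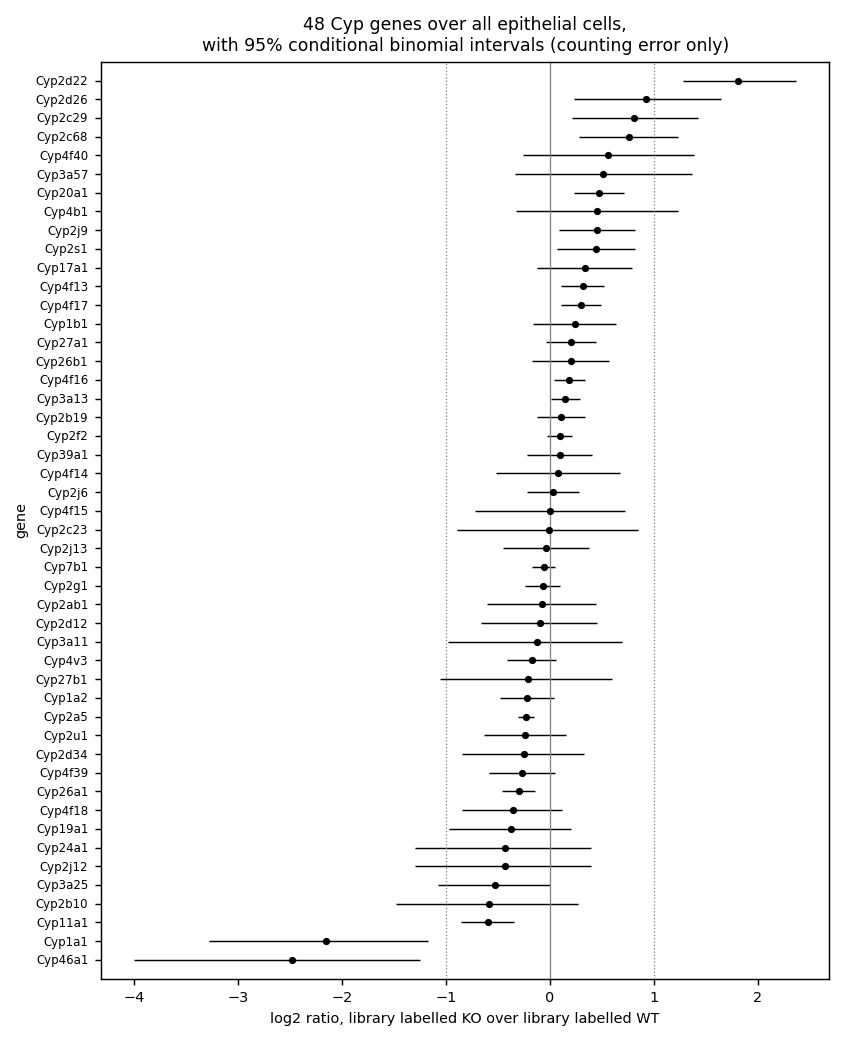
Log2 ratio (labelled KO over labelled WT) for the 48 Cyp genes over all epithelial cells, with 95% conditional binomial intervals of counting error only; dotted lines mark 2-fold. Cyp2d22 at 1.82, Cyp1a1 at -2.15 and Cyp46a1 at -2.48 lie beyond the lines and the other 45 between them.

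Cyp2d22, of a drug-oxidising subfamily, was higher in the library labelled KO, with 105 UMIs (4.68 CPM) against 41 (1.33 CPM), a log2 ratio of 1.82 (1.28 to 2.37). Its UMIs were scattered, at most 3 in a cell, and most lay outside the mimetic types. The unnamed cluster 2 had 28 and 6 UMIs (30.1 and 8.55 CPM, log2 ratio 1.81, interval 0.51 to 3.38), Ccl21 mTEC-like cluster 1 had 22 and 11 (15.6 and 5.82 CPM, 1.42, 0.31 to 2.61) and cluster 3 had 28 and 11 (9.75 and 5.35 CPM, 0.87, -0.18 to 2.02). Endothelial-like cells had 16.5 and 15.6 CPM. Cluster 2 and Ccl21 mTEC-like cluster 3 made up 14.9% and 13.7% of the epithelial cells under the label KO and 8.18% and 7.41% under the label WT; the part of this mix in the pooled ratio was not tested.

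Cyp46a1, which exports cholesterol from the brain, had 6 UMIs in the library labelled KO and 46 in the library labelled WT (log2 ratio -2.48, -4.00 to -1.25), and 2 against 44 in Aire-stage cells (0.280 and 3.50 CPM, -3.64, -6.73 to -1.70), from 2 and 25 cells. Its highest type by mean CPM, cTEC-like, rests on 1 UMI. Cyp1a1 had 10 against 61 UMIs (-2.15, -3.28 to -1.17). The Cyp1a1 UMIs of the library labelled WT came from 16 cells, and 5 of these held 68.9%, while those of the library labelled KO came from 8 cells. Without the highest cell of each library the ratios were -2.50 for Cyp46a1 and -2.29 for Cyp1a1. Neither gene reached 100 UMIs, the stricter minimum. The neighbour of Cyp1a1, Cyp1a2, had a ratio of -0.22 (-0.47 to 0.04), and -0.36 (-0.65 to -0.08) without the highest cell of each library. Cyp11a1 was lower by less than Cyp46a1 and Cyp1a1, 192 against 398 UMIs (-0.59, -0.85 to -0.34). Within Aire-stage cells the Cyp11a1 ratio was -0.25 (-0.54 to 0.04). The Aire-stage type was 22.1% and 28.6% of epithelial cells, and fewer cells and less RNA a cell cannot be told apart in the pooled value.

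Within Aire-stage cells 51 Cyp genes had 20 or more UMIs. A fall of 2-fold or more was seen for 6 of them (11.8%), where 4.6% of 19723 genes had such a fall, and a rise for 3 (5.88%, background 4.44%). Those lower in the library labelled KO were Cyp46a1, Cyp3a16 (3 and 41 UMIs), Cyp2c37 (0 and 32 UMIs, a log2 ratio of at most -2.60 with 3 counts in place of 0), Cyp1a1 (9 and 46), Cyp3a11 (6 and 25) and Cyp2c29 (11 and 40). Each came from few cells, such as Cyp3a16 from 3 and 9, Cyp3a11 from 3 and 5 and Cyp2c37 from 0 and 11. A gene can pass the minimum of 20 UMIs through 1 library alone, as Cyp2c37 did. The library labelled WT also held more UMIs of this type, and the share of all genes was not matched on counts. The share of Cyp genes lower is therefore not read as a result about them. The Cyp3a11 ratio was -1.24 with an interval that includes 0 (-2.82 to 0.08). Those higher were Cyp11b1 (25 and 16 UMIs, 1.46, 0.50 to 2.46), Cyp2d26 (26 and 18, 1.35, 0.43 to 2.30) and Cyp2j9 (21 and 15, 1.30, 0.28 to 2.36). Cyp11b1 came from only 9 and 6 cells. Over all epithelial cells labelled KO, 1 cell held 17 of 43 Cyp2d26 UMIs and 1 held 15 of 127 Cyp2j9 UMIs. The type of those cells is not given here. The median ratio of the 51 genes was -0.02, against -0.01 for all genes.

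In the enterocyte- and hepatocyte-like cells 11 Cyp genes had enough UMIs, and 4 were higher and 2 lower by 2-fold or more, against 4.82% and 7.81% of 7141 genes. Cyp3a13 (log2 ratio 1.02, 0.76 to 1.28), Cyp3a25 (1.09, -0.13 to 2.36), Cyp17a1 (1.17, -0.17 to 2.58) and Cyp2c29 (43 and 0 UMIs, at least 4.48) were higher in the library labelled KO. Cyp2a5 was lower, 49 and 341 UMIs (-2.16, -2.62 to -1.72), and Cyp2g1 had 0 and 27 (at most -2.53). These rest on 52 and 87 cells, and the intervals of Cyp3a25 and Cyp17a1 include 0. Cyp2c29 and Cyp2g1 passed the minimum through 1 library alone. Cyp2a5 was also lower by 2-fold or more in cluster 11 and in Ccl21 mTEC-like cluster 3, but in the microfold-like cells, where it is highest, its ratio was -0.21 (-0.37 to -0.05), and in keratinocyte-like cells 0.17 (0.04 to 0.31).

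In the other types few genes passed 2-fold. Keratinocyte-like cells had 1 of 21 higher (Cyp3a57, background 4.11%) and 1 lower (Cyp2j9, 3.68%, with an interval of -3.11 to 0.07), and tuft-like cells 1 of 17 higher (Cyp20a1, 2.93%) and 1 lower (Cyp3a13, 4.05%). Cyp3a57 rests on few cells: over all epithelial cells labelled KO, 1 cell held 14 of its 26 UMIs. Neuroendocrine-like cells had 2 of 15 higher, Cyp2f2 (15.2 and 4.25 CPM) and Cyp4f13 (38.3 and 18.1 CPM), against 3.18%, and 0 lower against 4.41%. Cycling cells had 1 of 14 higher (Cyp2g1, 3.41%) and 2 lower, Cyp1a2 with 4 and 22 UMIs and Cyp11a1 with 5 and 34 (3.77%). Microfold-like cells had 0 of 6 in either direction, against 2.84% and 6.09% of 6517 genes. Ccl21 mTEC-like cluster 1 had 1 of 11 higher (Cyp2d22, 3.3%) and 0 lower (2.47%), and cluster 3 had 1 of 14 higher (Cyp3a13, 21 and 1 UMIs from 3 and 1 cells, 3.3%) and 1 lower (Cyp2a5, 6 and 17 UMIs, 1.77%). The unnamed cluster 2 had 1 of 6 higher (Cyp2d22, 3.93%) and 0 lower (2.74%), and cluster 11 had 1 of 2 higher (Cyp4f16, 6.36%) and 1 lower (Cyp2a5, 10%).

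Genes that work with P450 enzymes were taken from lists written for this description. The 9 electron donors and haem genes, among them Por, the reductase that feeds microsomal P450 enzymes (45.4 and 48.6 CPM), and Alas1, the entry enzyme of haem synthesis (125 and 146 CPM), all passed the minimum, and 0 of 9 differed by 2-fold; Alas1 was highest in enterocyte- and hepatocyte-like cells and Por in keratinocyte-like cells. Over all genes 1.66% were higher and 2.53% lower by this fold. Of 7 measured steroid synthesis partners 1 was lower, Hsd3b1, which acts after Cyp11a1 (15 and 63 UMIs, -1.61, -2.53 to -0.78). Of 12 measured xenobiotic and bile acid sensors 1 was higher, the bile acid receptor gene Nr1h4 (94 and 33 UMIs, 1.97, 1.38 to 2.59). None of 11 retinoid and vitamin D genes and none of 5 other P450 genes outside the rule, among them Cyp51 of cholesterol synthesis (48.2 and 45.1 CPM), passed 2-fold.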

How the data were processed

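Single-cell RNA counts of 2 libraries were used. The deposited matrices hold raw counts of UMIs, which the authors made with Cell Ranger, per the file headers. Their version was 7.0.1, and the values are whole numbers, not scaled. The submitters' processing notes also name Seurat and mm10, without a role. Whether the reads cover the 3′ or 5′ end, and whether introns were counted, is not given in the sources used here. Every deposited barcode had at least 500 UMIs.

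The cell filter asked for 500 genes, 1000 UMIs and no more than 10% of UMIs from mitochondria (scanpy 1.11.5, Python 3.11.15). Scrublet called 0 doublets in either library, below thresholds of 0.276 and 0.266, so it is taken not to have worked and none were removed. Both libraries were clustered together without the Cyp genes (3000 variable genes, 30 components, 15 neighbours, Leiden resolution 1), giving 21 clusters. A cluster took a name with at least 3 markers (2-fold above the other cells, in 10% of cells) and 33% of a list, or 50% without a leading marker. These thresholds were chosen with the clusters already in view. UMIs were summed by type and library and scaled to CPM. Intervals are exact Poisson, conditional binomial or Clopper-Pearson at 95%, and limits at 0 use 3 counts. The calculation of ratios was tested on simulated data.

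The 12 genes with the most UMIs, those past 2-fold and the function lists were named; further genes with 50 or more UMIs were chosen after their values were seen. The genes and lists were chosen with earlier results of these data known. Positions come from GENCODE M21 (mm10). Of the 94 genes, 9 overlap a gene on the opposite strand and 12 share 10% or more of their 90-base windows with another gene. Alternatives covered cell filter, resolution, Cyp genes in the clustering, doublet scores, weights, scaling, UMI minimum and fold.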

Additional observations from a re-analysis of the deposited data

Results flagged for a closer look

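For 7 genes the difference between the libraries pointed in opposite directions in different types, each with an interval of counting error that leaves out 0; the difference between types was not tested, and 1 library a group allows no test. Values are log2 ratios, labelled KO over labelled WT. Cyp7b1 was 0.63 in keratinocyte-like and -0.42 in tuft-like cells. Cyp3a13 was 3.91 in Ccl21 mTEC-like cluster 3, from 3 cells against 1, and -1.70 in tuft-like cells. Cyp2g1 was 1.84 in cycling cells and at most -2.53 in enterocyte- and hepatocyte-like cells. Cyp2a5 was 0.82 in cycling and -2.16 in enterocyte- and hepatocyte-like cells. Cyp2f2 was 1.84 in neuroendocrine-like and -0.38 in keratinocyte-like cells. Cyp39a1 was 0.98 in cycling and -0.82 in Aire-stage cells. Cyp2c29 was at least 4.48 in enterocyte- and hepatocyte-like cells, from 5 cells against 0, and -1.05 in Aire-stage cells.

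In endothelial-like cells, which lie outside the epithelial types, 2 Cyp genes were flagged for levels far above those over all epithelial cells. In endothelial-like cells of the library labelled WT, Cyp4b1 stood at 37.8 CPM and Cyp2d22 at 15.6 CPM, against 0.974 and 1.33 CPM over all epithelial cells of that library. Other Cyp genes stood higher there than Cyp2d22, such as Cyp26a1 at 36.7 CPM, against 27.5 CPM over all epithelial cells.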

How the results depend on the processing

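No paired analysis was possible because each group holds 1 library. The alternatives for the enterocyte- and hepatocyte-like count, for single ratios and for levels were added after seeing the data. The count of genes higher in the library labelled KO (1) was 2 under the stricter cell filter, 2 at a minimum of 20 UMIs and 4 at 1.5-fold; the count lower (2) was 1 under the stricter filter, 8 of 67 at 20 UMIs and 0 at 100. Over all genes these settings gave 1.72%, 2.76% and 5.51% higher and 2.60%, 4.16% and 1.68% lower. At 20 UMIs the share of Cyp genes lower was above that of all genes, but this is not read as a result about Cyp genes. Genes can pass that minimum through 1 library alone, such as Cyp2c37 (0 and 35 UMIs) and Cyp2a12 (0 and 21). The share of all genes was not matched on counts. The count highest in Aire-stage cells (4) was 9 at resolution 0.5, 0 at resolution 2, 7 with equal weight per cell and 10 of 67 at 20 UMIs, where all genes gave 15.4%, 3.16%, 10.4% and 11.8%; under the stricter filter no cluster took that name, so it has no value. The count highest in enterocyte- and hepatocyte-like cells (13) was 8 with a minimum of 100 UMIs, 4 for the stricter filter and 5 for resolution 0.5, where all genes gave 6.24%, 4.30% and 5.64%. Cyp3a13 in that type (542 CPM) was 137 and 142 CPM under the last 2 of these. In these settings the name was held by larger clusters (639 cells, and 781 and 261), against 139; the cause was not tested. Of the single-gene values, 11 moved and 61 did not. Those that moved were all levels, which have no direction. The ratios of Cyp2d22, Cyp1a1 and Cyp46a1 kept their sign in every setting in which they were computed. Of the other counts and medians 44 stayed close and 13 moved.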
